A study of Mus musculus with 7 samples.

Results

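The genes described here encode 9 synaptic adhesion molecules of 3 families, the neurexins Nrxn2 and Nrxn3, the neuroligins Nlgn1, Nlgn2 and Nlgn3, and the leucine-rich repeat transmembrane proteins Lrrtm1, Lrrtm2, Lrrtm3 and Lrrtm4. They were taken by name after matching the 49315 gene identifiers of the count files to mouse symbols, and 1 further gene of the same rule is not reported here. Each of the 9 identifiers was found, and each passed the filter on low counts, which left 18352 genes for testing. Expression was measured by RNA sequencing in 7 libraries of primary oligodendroglia, the cells of the oligodendrocyte lineage, grown from the brains of newborn mice of both sexes. The 4 control libraries came from wildtype cells and the 3 knockout libraries from cells of mice lacking Klf13, a zinc finger transcription factor of the Krüppel-like family. All cultures were prepared from mixed glia by shake-off and microglia depletion and then kept in differentiating SATO medium for 6 days. The deletion was not limited to oligodendroglia, so other cells in a knockout culture lacked Klf13 as well.

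Neurexins sit in the presynaptic membrane and bind partners across the synaptic cleft, and each neurexin gene uses alternative promoters for a long alpha and a short beta form. Neuroligins and LRRTM proteins are among the postsynaptic partners that compete for neurexins and help to organise receptors. Oligodendrocyte precursors receive synapses from axons, where they are the postsynaptic side, and glial cells transcribe several of these adhesion genes.

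At an adjusted p of 0.05 or less, Nrxn3 was the only member higher in the knockout, at 3.59 times its control mean, and Lrrtm2 the only member lower, at 0.671 times its control mean. The other 7 members did not pass the test. All p-values in this comparison are from edgeR's quasi-likelihood test, and the adjustment across the 18352 genes followed Benjamini-Hochberg. Among all tested genes, 11.6% were higher and 12.2% lower at this threshold, so 1 of 9 in each direction lay near the background. With an added requirement of a log2 fold change of at least 1 in size, Nrxn3 was still called and no member was called lower, against 3.97% higher and 3.08% lower of all genes. The knockout libraries all lay above the controls for Nrxn3 and Lrrtm4, and all below them for Lrrtm2. Over all genes, 18.3% were higher and 18% lower without overlap. The median log2 fold change of the 9 members was 0.22, with a range from -0.58 to 1.84, beside a median of -0.0037 over all tested genes.

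The libraries held 24507471 to 59596479 counts on genes, and replicates of a group correlated at 0.974 or more on the log scale. Klf13 itself had 10669.9 to 11999.5 normalized counts in the controls and 802 to 961 in the knockouts, a log2 fold change of -3.69 (adjusted p = 6.77e-06, edgeR's quasi-likelihood test). The share of counts on 3 genes that collect ribosomal RNA reads, Gm42418, Gm23935 and Lars2, ran from 6.03% to 17.95%, and 4 libraries exceeded 10%, control replicates 1 and 4 with knockout replicates 1 and 3. Markers of the oligodendroglial lineage were present in every library, and the summed level of 3 such genes was 35583 to 43254 normalized counts per kilobase in the controls and 31374 to 41070 in the knockouts. Control replicate 3 stood apart by its microglial markers, 46206 normalized counts per kilobase in sum against 9996 to 11320 in the other controls. Among the knockouts, replicate 3 had 20663 and replicates 1 and 2 had 10414 and 13209. Control replicate 3 was also the lowest library for 5 of the 9 members, and knockout replicate 2 was the highest for 3.

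The promoter windows listed for Nrxn3 are shown because it was the member with the largest change, and that of Nlgn2 because it had the highest level and the most matches to the letters searched, a choice made after the values were seen. The Nrxn3 windows all lie inside the gene model of the files, which starts at chr12:88722876. None of them lies at that start, and whether transcription starts at these windows was not tested. Each window is the 250 bases before a RefSeq start on GRCm38.p6, written 5′ to 3′ on the gene's strand, and none of the 4 windows covers an exon of the gene models in the files. Capitals mark matches on either strand to 6 strings of letters, which the study searched as the Klf motif. They are ACACCC together with its variants ACGCCC as well as ACTCCC, and the strings that open with C instead, CCACCC together with CCGCCC as well as CCTCCC. Those with A or G as the third letter are forms of the CACCC and GC boxes that Krüppel-like factors are known to bind. Those with T as the third letter are neither, and all 6 strings were counted alike. Matches may overlap each other, in which case the capitals form a longer run.
Nrxn3, chr12:88794254-88794503, plus strand: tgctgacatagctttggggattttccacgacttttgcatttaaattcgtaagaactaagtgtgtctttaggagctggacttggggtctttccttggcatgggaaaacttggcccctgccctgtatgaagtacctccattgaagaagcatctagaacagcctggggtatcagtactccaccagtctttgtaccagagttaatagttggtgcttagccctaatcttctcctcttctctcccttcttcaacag
Nrxn3, chr12:88953140-88953389, plus strand: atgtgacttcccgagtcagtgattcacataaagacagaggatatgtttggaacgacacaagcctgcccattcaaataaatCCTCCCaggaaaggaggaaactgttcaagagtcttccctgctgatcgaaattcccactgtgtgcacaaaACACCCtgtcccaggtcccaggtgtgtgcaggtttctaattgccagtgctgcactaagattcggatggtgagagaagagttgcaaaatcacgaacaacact
Nrxn3, chr12:89812233-89812482, plus strand: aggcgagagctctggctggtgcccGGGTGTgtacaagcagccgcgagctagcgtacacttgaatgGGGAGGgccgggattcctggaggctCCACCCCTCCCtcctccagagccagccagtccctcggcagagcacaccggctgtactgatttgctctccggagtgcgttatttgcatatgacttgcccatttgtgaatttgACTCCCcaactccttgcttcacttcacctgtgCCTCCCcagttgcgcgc
Nlgn2, chr11:69837785-69838034, minus strand: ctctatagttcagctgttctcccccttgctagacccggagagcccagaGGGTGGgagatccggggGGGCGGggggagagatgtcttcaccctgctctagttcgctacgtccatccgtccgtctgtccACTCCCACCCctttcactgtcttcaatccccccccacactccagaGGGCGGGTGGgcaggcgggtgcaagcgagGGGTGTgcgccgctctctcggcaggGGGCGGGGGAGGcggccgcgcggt

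The 3 Nrxn3 windows held 0, 2 and 6 matches, in the order of their position along the chromosome, and had a GC content of 45.6%, 46.8% and 60.0%. The Nlgn2 window held 9 matches at a GC content of 67.6%. Among 32851 promoters of the same length, 72.6% held at least 1 match, the median was 1 match, and 13.5% held 5 or more. Promoter sequences matched 6 of the 9 members by symbol, with 10 windows, of which 7 held a match. Nrxn2, Nlgn3 and Lrrtm2 had no entry. Counts per gene do not show which start a transcript came from, so the windows describe sequence and were not tied to the measured change.

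Nrxn2 had the higher count of the neurexin pair. It lies at chr19:6418731-6544169 on the plus strand of GRCm38. Control replicates 1 to 4 had 6538, 10811, 8381 and 6488 normalized counts, and knockout replicates 1 to 3 had 9417, 16795 and 8245. Normalized counts are counts scaled to a common library size by TMM factors. Knockout replicate 2 was the highest library, and the other knockout libraries lay within the range of the controls. The means were 8054 ± 2038 (SD, n = 4) and 11486 ± 4635 (SD, n = 3), and the log2 fold change of 0.51 (SE 0.28) did not pass (adjusted p = 0.239, edgeR's quasi-likelihood test). Without knockout replicate 2 the log2 fold change was 0.13. With the ribosomal RNA class as a term, a setting chosen after seeing the data, it was 0.59 and passed (adjusted p = 0.0137, edgeR's quasi-likelihood test).

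Nrxn3 lies at chr12:88722876-90334935 on the plus strand, a span of 1612 kb with 12605 bases of exon in the merged gene model. Its controls had 1200.3, 1166, 624 and 827 normalized counts, and its knockouts 3181, 3995 and 3092. Every knockout library was above every control, with a wide gap between the groups. The means were 954 ± 277 (SD, n = 4) and 3423 ± 498 (SD, n = 3), a log2 fold change of 1.84 (SE 0.23, 95% confidence interval 1.30 to 2.38, adjusted p = 0.00241, edgeR's quasi-likelihood test). The log2 fold change ran from 1.69 to 1.99 over 17 other settings, and the adjusted p never exceeded 0.0132 in edgeR or DESeq2. Within the libraries above 10% ribosomal RNA reads, which held 2 of each group, the log2 ratio was 1.63, and within the other 3 libraries, of which 1 was a knockout, it was 2.16.

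Neuronal and astrocytic marker genes moved in the same direction as Nrxn3. The summed level of the neuronal list was 6239 to 8635 normalized counts per kilobase in the controls and 10487 to 14730 in the knockouts, and 12 of its 16 tested genes were higher and none lower. Their median log2 fold change was 1.54, with a range from -0.73 to 2.43. With a log2 fold change of at least 1 also required, 10 of the 16 were higher, against 3.97% of all tested genes. Slc17a7, a vesicular glutamate transporter gene of that list, had too few counts to be tested and was at 0 in 1 knockout library. The microtubule gene Map2 had a log2 fold change of 0.73 (adjusted p = 0.00479) and the RNA-binding protein gene Elavl3 one of -0.46 (adjusted p = 0.0977) in edgeR's quasi-likelihood test. The latter passed as lower with the replicate number as a block (adjusted p = 0.0241), with the ribosomal RNA class as a term (adjusted p = 0.00478) and without knockout replicate 2 (adjusted p = 0.0394). The astrocytic list summed to 21891 to 29927 in the controls and 42606 to 50459 in the knockouts, with 8 of 9 genes higher, among them Gfap at a log2 fold change of 0.66 (adjusted p = 0.0240, edgeR's quasi-likelihood test). Aqp4, a water channel gene of the same list, had a log2 fold change of 1.19 (adjusted p = 0.0288, edgeR's quasi-likelihood test). The call of Gfap was lost without knockout replicate 2 (adjusted p = 0.0880). That of Aqp4 was lost without control replicate 3 or any 1 knockout library (adjusted p = 0.0536 to 0.0914), and without the filter on low counts (adjusted p = 0.116). In bulk samples fewer cells of a type and less RNA per cell cannot be told apart, and the part of either list in the change of Nrxn3 was not tested.

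**Figure D1:**
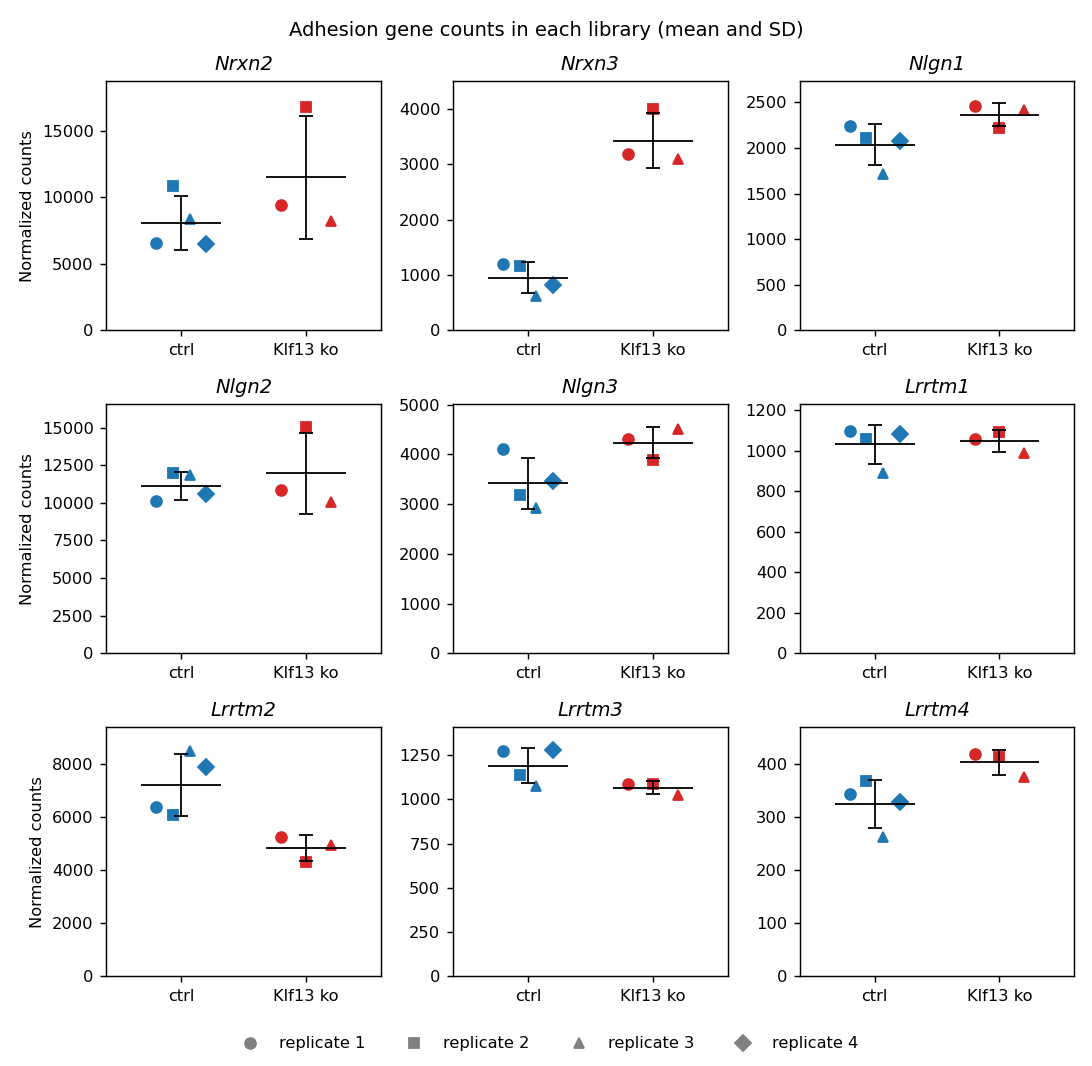
Normalized counts (vertical axis, from 0) of the 9 genes in the 4 control (blue) and 3 Klf13 knockout (red) libraries. Each symbol is 1 library, its shape gives the replicate number, and lines are the mean and SD; the groups are apart for Nrxn3, Lrrtm2 and Lrrtm4, and knockout replicate 2 is high for Nrxn2 and Nlgn2.

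Among the neuroligins, Nlgn2, known from inhibitory synapses, had the highest count. The gene lies at chr11:69823122-69837784 on the minus strand. Its controls had 10101, 11956, 11821 and 10569 normalized counts, and its knockouts 10816, 15048 and 10021. The groups overlapped, with the lowest and the highest library both in the knockout. The log2 fold change came to 0.11, with a 95% confidence interval of -0.23 to 0.44 (adjusted p = 0.647, edgeR's quasi-likelihood test), and without knockout replicate 2 it was -0.09.

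Nlgn3, which is found at excitatory as well as inhibitory synapses, lies at chrX:101299168-101325963 on the plus strand. The controls had 4105, 3189, 2920.4 and 3457 normalized counts and the knockouts 4308, 3888 and 4519. Control replicate 1 lay inside the range of the knockouts, and the other controls lay below it. The log2 fold change of 0.31 (SE 0.12) did not pass (adjusted p = 0.0982, edgeR's quasi-likelihood test). It passed without control replicate 1 (log2 fold change 0.42, adjusted p = 0.0275), and also with the ribosomal RNA class as a term (0.27, adjusted p = 0.0366), in edgeR's quasi-likelihood test. Of the exonic bases of Nlgn3, 41.2% are shared with Gm21986 on the same strand. Reads from the shared bases cannot be told apart between the 2 genes, so the Nlgn3 count is uncertain. The mean count was 20.0 for Gm21986 and 3776.3 for Nlgn3.

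Nlgn1, the neuroligin of excitatory synapses, lies at chr3:25426215-26332460 on the minus strand and had the lowest count of the 3. Its controls had 2245, 2113, 1716 and 2074 normalized counts, and its knockouts 2457, 2222 and 2418. Control replicate 1 was higher than knockout replicate 2, and control replicate 3 was the lowest library. The log2 fold change came to 0.22, with a 95% confidence interval of -0.01 to 0.44 (adjusted p = 0.15, edgeR's quasi-likelihood test).

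Lrrtm2 was the LRRTM gene with the highest count and the only member that passed the test as lower. LRRTM2 binds neurexins and helps to hold AMPA-type glutamate receptors at excitatory synapses. The controls had 6378, 6083, 8476 and 7852 normalized counts, and the knockouts 5225, 4301 and 4954. Each knockout library was below the lowest control. The means were 7197 ± 1151 (SD, n = 4) and 4826 ± 475 (SD, n = 3), a log2 fold change of -0.58 (SE 0.13, 95% confidence interval -0.89 to -0.27, adjusted p = 0.0207, edgeR's quasi-likelihood test). The call was lost without control replicate 4 (adjusted p = 0.0593) and without knockout replicate 1, 2 or 3 (adjusted p = 0.0580, 0.0784 and 0.0626). The log2 fold change stayed between -0.65 and -0.49 in these and 13 further settings, and the log2 ratio was -0.48 within the libraries above 10% ribosomal RNA reads and -0.76 within the others.

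Mature oligodendrocyte markers moved in the same direction as Lrrtm2. Their summed level was 218200 to 238137 normalized counts per kilobase in the controls and 65611 to 77039 in the knockouts, and 10 of 10 genes were lower, among them the myelin gene Mbp (log2 fold change -1.78). Precursor markers summed to 11798 to 13955 in the controls and 15491 to 16361 in the knockouts, with 3 of 6 genes higher. Pdgfra, the growth factor receptor gene of precursors, had a log2 fold change of 0.07 (adjusted p = 0.451, edgeR's quasi-likelihood test). For the phosphatase gene Ptprz1 it was 0.33 (adjusted p = 0.0455, and 0.101 with the replicate block, in edgeR's quasi-likelihood test), and this call was also lost with upper quartile scaling (adjusted p = 0.0580) and without control replicate 2 or 4 or any 1 knockout library (adjusted p = 0.0614 to 0.123). The other 2 precursor markers that were higher, named after their values were seen, were Vcan (log2 fold change 0.50) and Cacng4 (0.44), and Cacng4 did not pass without knockout replicate 1 (adjusted p = 0.0587) or 2 (adjusted p = 0.0869). The lineage markers Olig1 and Sox10 had log2 fold changes of -0.10 (adjusted p = 0.458) and -0.31 (adjusted p = 0.207) in edgeR's quasi-likelihood test. Sox10 passed as lower with the ribosomal RNA class as a term (adjusted p = 0.0386). The part of the mature or precursor cells in the change of Lrrtm2 was not tested.

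Lrrtm2 lies at chr18:35209011-35215024 on the minus strand, inside and antisense to Ctnna1, the gene of an adhesion protein of the alpha-catenin family. Lrrtm1 and Lrrtm3 lie in the same manner inside Ctnna2 and Ctnna3, and in the gene models of the files none of the 3 pairs shares an exonic base. The strand setting of the counting is not given, so reads from host introns over an LRRTM exon may have been counted for the LRRTM gene. This was not tested. Normalized counts of Ctnna1 were 13539, 13916, 15549 and 16706 in wildtype cells and 11851, 10009 and 11050.2 in knockout cells, a log2 fold change of -0.44 (adjusted p = 0.0156, edgeR's quasi-likelihood test). As for Lrrtm2, the groups did not overlap. The call of Ctnna1 was lost without knockout replicate 2 (adjusted p = 0.0617) or 3 (adjusted p = 0.0564). Counts of Lrrtm2 were 0.437 to 0.545 times those of Ctnna1 in the controls and 0.430 to 0.448 times in the knockouts, ranges that overlapped.

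Ctnna2 and Lrrtm1 had no such parallel. Ctnna2 had a log2 fold change of 0.27 (adjusted p = 0.0404, edgeR's quasi-likelihood test), which missed the threshold with the replicate block (adjusted p = 0.0543), in DESeq2 (adjusted p = 0.0535), with total counts as library sizes (adjusted p = 0.0770) and without the filter on low counts (adjusted p = 0.0701). It also missed it when control replicate 3 or 4 or any 1 knockout library was left out (adjusted p = 0.0595 to 0.131). Lrrtm1, whose product acts at excitatory synapses, lies at chr6:77242689-77257791 on the plus strand. The controls had 1098, 1058, 889 and 1080.2 normalized counts and the knockouts 1058, 1094 and 987, and the ranges overlapped almost fully. Its log2 fold change came to 0.02, with a 95% confidence interval of -0.19 to 0.23 (adjusted p = 0.897, edgeR's quasi-likelihood test).

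Lrrtm3, at chr10:63928472-64090277 on the minus strand, reached 1272, 1138, 1074 and 1279 normalized counts in wildtype cells and 1089, 1089 and 1022 in knockout cells. Control replicate 3 lay among the knockouts. The log2 fold change came to -0.16, with a 95% confidence interval of -0.35 to 0.03 (adjusted p = 0.210, edgeR's quasi-likelihood test). Its host Ctnna3 had 18.3 to 49.96 normalized counts, so that Lrrtm3 had 25.5 to 58.8 times the counts of the gene around it.

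Lrrtm4, whose protein also binds heparan sulfate proteoglycans, had the lowest count of the 9. It lies at chr6:80018877-80810143 on the plus strand. The controls had 344, 368, 263 and 329 normalized counts, and the knockouts 421, 414 and 376. Every knockout library was above the highest control by a small margin, but the log2 fold change of 0.31 (SE 0.13) did not pass (adjusted p = 0.136, edgeR's quasi-likelihood test). A transcript on the opposite strand, Gm4409, shares 25.1% of its exonic bases, and had a mean count of 2.0.

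**Figure D2:**
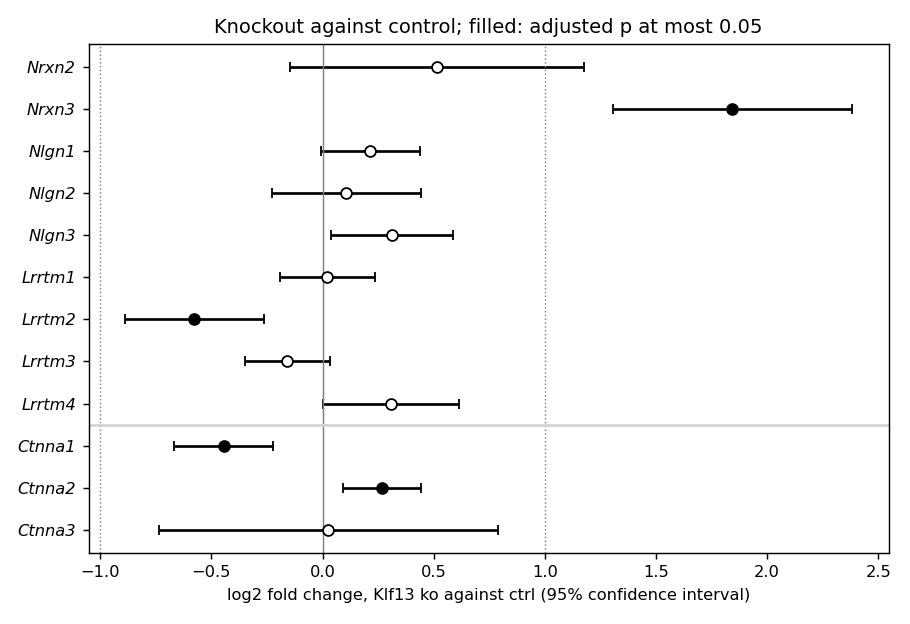
Log2 fold change, Klf13 knockout against control (horizontal axis), of the 9 genes and the 3 alpha-catenin genes, with 95% confidence intervals from edgeR. Filled points had an adjusted p of 0.05 or less, and dotted lines mark 1 and -1; Nrxn3 at 1.84 is the only point beyond them, and Lrrtm2 and Ctnna1 both lie below 0.

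Levels of different genes were compared as normalized counts per kilobase of exon, with all exons of a gene merged, so that genes with long, rarely used exons come out low. In the controls the order was Nlgn2 at 1921 ± 159, Lrrtm2 at 1270.5 ± 203, Nrxn2 at 583 ± 148, Nlgn3 at 369 ± 54.8 and Lrrtm1 at 340.0 ± 31.7 normalized counts per kilobase (SD, n = 4). They were followed by Lrrtm3 at 280.1 ± 23.8, Nlgn1 at 152 ± 16.9, Nrxn3 at 75.7 ± 22.0 and Lrrtm4 at 53.0 ± 7.33. Each gene was above the next in 4 of 4 controls, except that Nlgn3 was above Lrrtm1 in 3. The postsynaptic Nlgn2 and Lrrtm2 therefore led the order, and Nrxn3 was next to last.

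In the knockouts Nlgn2 again led, at 2068 ± 467 normalized counts per kilobase (SD, n = 3). Lrrtm2 at 852 ± 83.8 was above Nrxn2 at 832 ± 336 in 2 of 3 libraries, and the pair did not differ beyond its spread. Nrxn3 moved from rank 8 to rank 6, at 272 ± 39.5, and was above Lrrtm3 at 251 ± 9.10 in 2 of 3 libraries. Nlgn1 was above Nrxn3 in 4 of 4 controls and 0 of 3 knockouts. Against all tested genes, the mean level per kilobase over the 7 libraries stood at percentile 94.6 for Nlgn2, 89.1 for Lrrtm2, 82.3 for Nrxn2 and 51.8 for Nrxn3.

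**Figure D3:**
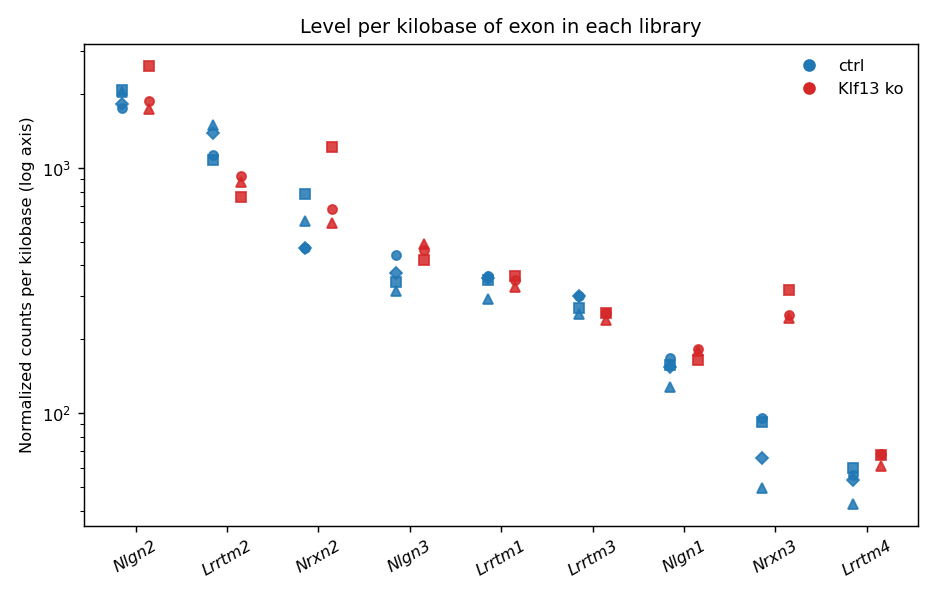
Level of each gene in normalized counts per kilobase of exon (vertical log axis), ordered by the mean of all 7 libraries, for controls (blue) and Klf13 knockouts (red). Symbols are single libraries and their shapes replicate numbers; Nrxn3 is below Nlgn1 in each control and above it in each knockout.

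Summed over the genes given here, the neurexins had 659 ± 153 (SD, n = 4) normalized counts per kilobase in the controls and 1103 ± 375 (SD, n = 3) in the knockouts, and the neuroligins 2441 ± 105 and 2701 ± 424. The LRRTM genes summed to 1843, 1750.1, 2085 and 2097 in wildtype cells and 1596, 1444 and 1501 in knockout cells, with each knockout library below the controls. Within the neurexin pair, Nrxn3 made up 16.7%, 10.6%, 7.54% and 12.2% in wildtype cells and 27.0%, 20.7% and 29.1% in knockout cells. Its mean share was 11.8% ± 3.84 and 25.6% ± 4.40, and the groups did not overlap.

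Lrrtm2 made up 61.1%, 61.4%, 71.8% and 66.1% of the LRRTM level in wildtype cells and 57.8%, 52.6% and 58.2% in knockout cells, again without overlap. Lrrtm1 had a mean share of 17.7% in the controls and 22.8% in the knockouts, and Lrrtm4 one of 2.77% and 4.35%. For each of these 4 shares the two-sided exact permutation p was 0.0571, the smallest that 4 against 3 libraries can give (0.103 after Benjamini-Hochberg adjustment over the 9 shares), so this exact test cannot pass the threshold with these libraries. The share of Lrrtm3 was 14.5% and 16.6% (exact p = 0.171). Among the neuroligins, Nlgn2 had 78.6% and 76.0% (exact p = 0.457), Nlgn3 15.2% and 17.3% (exact p = 0.457) and Nlgn1 6.23% and 6.66% (exact p = 0.514). The shares of a family sum to a fixed total, so a rise of 1 member lowers the others.

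**Figure D4:**
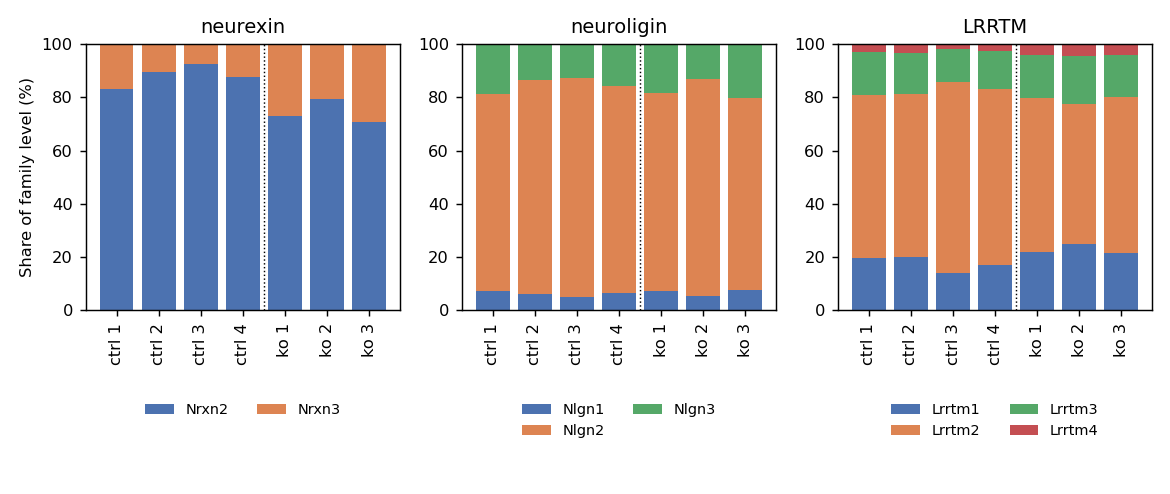
Share (%, vertical axis) of each gene in the summed level per kilobase of the family members given here, for each control (ctrl) and knockout (ko) library. The dotted line separates the groups; the Nrxn3 share is 7.54% to 16.7% in the controls and 20.7% to 29.1% in the knockouts, while the neuroligin shares overlap.

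Other genes of the same pathway were taken from 4 lists, whose counts stand beside the 11.6% higher and 12.2% lower of all tested genes. The neuronal and astrocytic markers described above, with 12 of 16 and 8 of 9 genes higher, moved with the higher genes of these lists, and the mature oligodendrocyte markers, with 10 of 10 lower, moved with the lower genes. Their part in these lists was not tested. Of 12 secreted neurexin ligands, 8 could be tested, since Cbln3, Cbln4, C1ql4 and Nxph2 had too few counts. The list had 1 gene higher, none lower and a median log2 fold change of -0.26. In DESeq2, 2 of its genes were lower. The gene that rose was Cbln2, a secreted cerebellin that binds neurexins. Its controls held 58.1, 68.4, 42.3 and 35.6 normalized counts and its knockouts 101, 115 and 102, a log2 fold change of 1.06 (adjusted p = 0.0207, edgeR's quasi-likelihood test). This call was lost without knockout replicate 1 (adjusted p = 0.0513) or 2 (adjusted p = 0.0773). The genes with the highest counts of the list, Nxph1, C1ql1 and C1ql3, had log2 fold changes of -0.26 (adjusted p = 0.0596), -0.25 (adjusted p = 0.594) and 0.17 (adjusted p = 0.517) in edgeR's quasi-likelihood test. Nxph1 passed as lower in DESeq2 (adjusted p = 0.0379), and in edgeR with library sizes taken without the ribosomal RNA genes (adjusted p = 0.0475) or with the ribosomal RNA class as a term (adjusted p = 0.0347).

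Of 17 other binding partners and regulators, 3 were higher, 2 lower and 12 did not pass, with a median log2 fold change of 0.16. Mdga1, a membrane-anchored protein that binds neuroligins and blocks their contact with neurexins, was measured at 725, 812, 504 and 384 normalized counts without and 2557, 3282 and 1979 with the deletion. The groups were far apart, with a log2 fold change of 2.11 (adjusted p = 0.00315, edgeR's quasi-likelihood test). The calsyntenin genes Clstn3 and Clstn2 had log2 fold changes of 1.43 (adjusted p = 0.0318) and 1.41 (adjusted p = 0.0343) in edgeR's quasi-likelihood test. Both calls were lost without control replicate 3 or without knockout replicate 1 or 2, that of Clstn2 also without knockout replicate 3 (adjusted p = 0.0574 to 0.112), and both without the filter on low counts (adjusted p = 0.0998 and 0.125). The 3 partners with the highest counts, Clstn1, the dystroglycan gene Dag1 and the latrophilin gene Adgrl1, did not pass. Among the lower partners, the glypican gene Gpc1, named after its values were seen, had a log2 fold change of -0.38 (adjusted p = 0.0388, edgeR's quasi-likelihood test). Its call was lost without control replicate 2, 3 or 4 or knockout replicate 1 or 3 (adjusted p = 0.0601 to 0.101), and with total counts as library sizes (adjusted p = 0.131). The log2 fold changes of Clstn1, Dag1 and Adgrl1 were 0.16, -0.07 and 0.33, and Adgrl1 passed with the replicate block (adjusted p = 0.0198 against 0.0733 without it, edgeR's quasi-likelihood test). It also passed with upper quartile scaling, with the ribosomal RNA class, without control replicate 2 and without knockout replicate 3 (adjusted p = 0.0346 to 0.0443).

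Of 27 intracellular scaffold genes, 12 were higher, 2 lower and 13 did not pass, with a median of 0.18 and a range from -0.92 to 2.15. Dlgap2, Dlg2 and Shank2, which belong to the postsynaptic density, had log2 fold changes of 1.32 (adjusted p = 0.0112), 1.15 (adjusted p = 0.00691) and 1.03 (adjusted p = 0.0122) in edgeR's quasi-likelihood test. The neurexin-binding Cask and Sdcbp and the scaffold gene Dlgap1, those with the highest counts of the list before any correction for length, had log2 fold changes of 0.18, -0.14 and -0.01 and did not pass. The 2 lower scaffolds, named after their values were seen, were Dlg1, which encodes a relative of the postsynaptic density proteins, and Apba1, a presynaptic adaptor gene. Dlg1 had 9219, 9650.3, 9704 and 10377 normalized counts in wildtype cells and 5442, 4761 and 5263 in knockout cells, without overlap. Its log2 fold change was -0.92 (adjusted p = 0.000214) and that of Apba1 -0.32 (adjusted p = 0.0110) in edgeR's quasi-likelihood test. Without knockout replicate 2 the number of higher scaffolds was 6.

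Of 37 genes of other synaptic adhesion families, 12 were higher, 6 lower and 19 did not pass, with a median of 0.30. The teneurin genes Tenm4 and Tenm3 and the gene Slitrk4 rose, by log2 fold changes of 1.53 (adjusted p = 0.00344), 1.02 (adjusted p = 0.00441) and 1.38 (adjusted p = 0.00386) in edgeR's quasi-likelihood test. Il1rap and Ptprd, whose proteins are known to bind each other across the cleft, both fell. Normalized counts of Il1rap were 6242, 6476, 6494 and 7546 in wildtype cells and 2168, 1591 and 1972 in knockout cells, a log2 fold change of -1.81 (adjusted p = 0.000139, edgeR's quasi-likelihood test). Those of Ptprd were 9928, 10467, 7395 and 7652 in wildtype cells and 4057, 4100.2 and 4432 in knockout cells, a log2 fold change of -1.08 (adjusted p = 0.00247, edgeR's quasi-likelihood test). Of the genes with the highest counts in this list, not corrected for length, Cadm1, an immunoglobulin-type adhesion gene, fell by 0.56 on the log2 scale (adjusted p = 0.00503, edgeR's quasi-likelihood test), while Ptprs (0.09) and Igsf9b (0.21) did not pass. Without control replicate 1 or knockout replicate 1 or 3 the number of lower genes was 3.

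**Figure D5:**
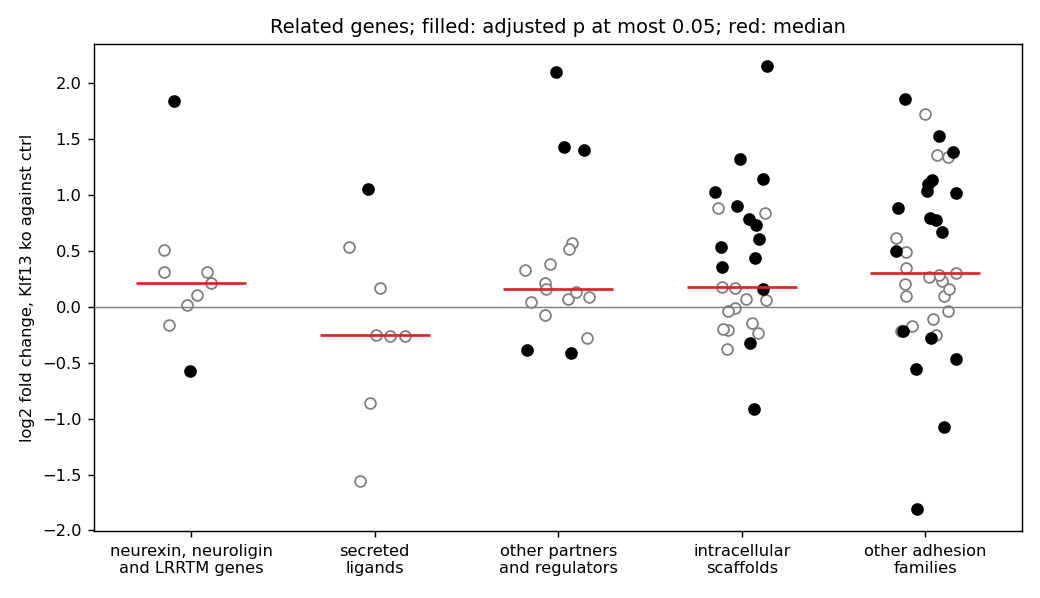
Log2 fold change, Klf13 knockout against control (vertical axis), of the 9 genes and of the tested genes of 4 related lists, each point 1 gene. Filled points had an adjusted p of 0.05 or less and red lines are list medians, which run from -0.26 for secreted ligands to 0.30 for other adhesion families.

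Microglial and mesenchymal markers varied widely among the controls. None of 8 microglial genes passed, and C1qa and C1qb, complement genes of microglia, had log2 fold changes of -0.41 and -0.32 that turned positive without control replicate 3. The summed level of fibroblast, mural and endothelial markers was 788 to 5103 normalized counts per kilobase in the controls and 287 to 850 in the knockouts, with 1 of 6 tested genes lower. That gene, the proteoglycan gene Dcn, was named after its values were seen, had overlapping groups and lost its call without any 1 library other than control replicate 2 and knockout replicate 3 (adjusted p = 0.0739 to 0.138). It was also lost in limma-voom (adjusted p = 0.112), without the filter on low counts (adjusted p = 0.0921) and with the ribosomal RNA class as a term (adjusted p = 0.0535). The collagen genes Col1a1 and Col1a2 of that list did not pass (log2 fold changes -2.30, adjusted p = 0.0565, and -2.64, adjusted p = 0.0546, edgeR's quasi-likelihood test), but passed with the replicate block (adjusted p = 0.0109 and 0.00923), in DESeq2 (adjusted p = 0.00854 and 0.00597) and without control replicate 2 (adjusted p = 0.0275 and 0.0294). The endothelial gene Cldn5 had 0 counts in 6 of 7 libraries. The part of these cells in the values of the 9 genes was not tested.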

How the data were processed

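RNA from 7 cultures was sequenced, and the authors deposited whole-number counts per gene without normalization. Per the submitters' processing notes, which give no order, Trimmomatic 0.36, STAR 2.5.2b and featureCounts of Subread 1.5.2 were used with GRCm38. The study's methods state that unique hits within exons were counted, and the strand setting is not given in the sources used here. Symbols were matched to 48970 of the 49315 identifiers, and promoter sequences were taken from RefSeq (GRCm38.p6).

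The test was edgeR 4.0.16 under R 4.3.3 (filterByExpr, TMM factors, robust quasi-likelihood fit, group as the only term, two-sided), with Benjamini-Hochberg adjustment over all tested genes. Scripts were tested on simulated data. A total of 24507471 to 59596479 counts per library limits the precision of low genes. Levels between genes are normalized counts per kilobase of merged exon. They replace the planned TPM values, which are lowered by the ribosomal RNA reads of a library, and family shares are the same on either scale. Shares were compared by exact permutation tests.

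Groups came from the sample titles, and each library is labelled as a biological replicate. Deviations from the group means correlated at 0.11, 0.44 and 0.14 between control and knockout libraries of the same number and at -0.51 to 0.18 between the others. Among the values of each knockout library, that of the same number was the highest only for replicate 2. Knockout replicate 1 correlated more with control replicate 4 (0.18), and knockout replicate 3 more with control replicate 1 (0.16). Whether the numbers pair the samples is therefore not known, and the main test left them out. Control replicate 4 had no partner in a fit with the replicate block, which was run as an alternative. Others were DESeq2 1.42.0, limma-voom (limma 3.58.1), other scalings and filters, and leaving out each library.

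The 9 genes and all lists were chosen with earlier results of these data known. Beyond them, the genes named were, in each related list, the 3 with the highest mean and the up to 3 with the smallest p in each direction among those that passed (adjusted p up to 0.05) and changed by 1 or more on the log2 scale, and, in each marker list, the 2 with the highest mean. Where 5 or fewer genes of a list passed in a direction, these were named as well, after their values were seen. Of the genes these rules pick, 2 are not reported here.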

Additional observations from a re-analysis of the deposited data

Results flagged for a closer look

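In the 4 controls, 58 genes, 10 summed list levels and 9 family shares were checked for a single library far from the other 3, and 4 of these 77 values stood out, all in control replicate 3. Chance alone picks out about 1 in 20 such groups, and the 4 values are not independent, since 3 of them are microglial. The summed level of the microglial markers was 46206 normalized counts per kilobase in control replicate 3, and 9996 to 11320 in the other controls. C1qa had 21476 normalized counts there, against 4595 to 4882, and C1qb had 19021, against 4000.1 to 5364. Sdcbp, the gene of the scaffold protein syntenin, had 13576 normalized counts in this library, against 8035, 7770 and 8670 in control replicates 1, 2 and 4.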

How the results depend on the processing

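Over 17 alternatives for each of the 9 genes, 142 of 153 values kept their direction and their side of the threshold, 4 lost the call, 3 gained it and 4 changed sign. With the replicate block, which takes the numbers as pairs, no call among the 9 genes changed. Nrxn3 was then at a log2 fold change of 1.83 (adjusted p = 0.00339) and Lrrtm2 at -0.52 (adjusted p = 0.0236) in edgeR's quasi-likelihood test. The number of higher members was 3 with the ribosomal RNA class as a term, added after seeing the data, and 1 to 2 when single libraries were left out. The number of lower members was then 0 to 1. Leaving out single libraries moved the log2 fold change of Nlgn2 from -0.093 to 0.23, Lrrtm1 from -0.045 to 0.068, Ctnna3 from -0.19 to 0.23, C1ql1 from -0.41 to 0.024, Sdcbp from -0.27 to 0.080, Dlgap1 from -0.11 to 0.088, C1qa from -0.61 to 0.51 and C1qb from -0.705 to 0.48. That of Lrrtm1 was -0.000429 with library sizes taken without the ribosomal RNA genes, that of Ctnna3 was -0.00847 with the ribosomal RNA class, and that of Dlgap1 was 0.0199 with upper quartile scaling, 0.0346 with total counts and 0.0758 with the replicate block. For other named genes, 745 of 832 values kept their direction and call. Without the filter on low counts 7 scaffolds and 1 other partner were higher. Upper quartile scaling and the ribosomal RNA class each gave 5 higher partners, and upper quartile scaling and total counts each gave 1 lower partner. Single libraries left out gave 1 to 5 higher and 0 to 2 lower partners. The cause of these differences was not tested. Of the secreted ligands, 2 were lower in DESeq2, and 1 was lower with library sizes without the ribosomal RNA genes and with the ribosomal RNA class. A count of 0 allows up to 3 counts, so Cldn5 is at the limit of this depth.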
